A study of Mus musculus with 12 samples.

Results

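The genes described here encode the MHC molecules of the mouse and the proteins that load or regulate them. There were 10 of them among the 48623 genes of the table, chosen by symbol: the classical class II chains *H2-Aa*, *H2-Ab1* and *H2-Eb1*, the invariant chain *Cd74*, the class II regulator *Ciita*, the peptide exchange chain *H2-DMa*, the class I heavy chains *H2-K1* and *H2-D1*, their partner *B2m* and the peptide transporter subunit *Tap1*. Each symbol matched 1 Ensembl identifier. On GRCm38, the *H2* genes and *Tap1* lie in the MHC of chromosome 17, from *H2-K1* (chr17:33996017-34000347) over *H2-DMa*, *Tap1*, *H2-Ab1*, *H2-Aa* (chr17:34282744-34287823) and *H2-Eb1* to *H2-D1* (chr17:35262730-35267499), while *B2m* lies on chromosome 2, *Ciita* on 16 and *Cd74* on 18. They were measured by RNA-seq in primary microglia, the resident macrophages of the brain, grown from cortices and hippocampi of newborn C57BL/6J pups that were either wild type (WT) or homozygous for a *Trem2* R47H knock-in allele (KI). There were 6 cultures, T13, T33 and T43 from WT and T15, T22 and T32 from KI, and each was sequenced without treatment and after exposure to the cytokine IL-4 at 20 ng/ml for 48 h. This makes 12 libraries in 4 groups of 3. The R47H allele of this line also lowers the amount of *Trem2* RNA through altered splicing, so it is a model of reduced *Trem2* as much as of the amino acid change. The study describes the WT animals as littermates of the KI animals, and the sample labels do not say which cultures came from the same litter.

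MHC class II molecules present peptides from ingested material to CD4 T cells, and class I molecules present peptides from the cell's own proteins to CD8 T cells. Class II α and β chains assemble in the endoplasmic reticulum around the invariant chain CD74, cathepsins then digest CD74 in endosomes, and H2-DM exchanges its last fragment for a peptide. Class I heavy chains fold with β2-microglobulin, the product of *B2m*, and receive peptides that the proteasome cuts and the TAP transporter carries into the endoplasmic reticulum. Resting microglia are known for low class II, which interferon-γ raises through CIITA, and IL-4 is the cytokine classically used to drive alternative activation of macrophages.

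Promoters of class II genes, of class I heavy chain genes and of *B2m* share a composite element in which an X2 box, bound by CREB family factors, lies a fixed distance before a Y box, bound by NF-Y. CIITA and, at class I genes, NLRC5 act through the proteins on this element, and it is shown for the members in which it was found. Of the 10 genes, 7 had a window of 250 bases before to 50 after the start in the RefSeq promoter sequences of GRCm38.p6. The motif TGACG (part of the X2 box) followed after 20 or 21 bases by ATTGG (Y box) was found in 4 of the 7 windows, against 0.164% of all 32851 windows searched on both strands. The allowed distance was set after the sequences had been seen. The 4 elements, from the first base of TGACG to the last of ATTGG on the strand of the gene, with matched motifs in capitals, were:
*H2-Aa*, chr17:34287867-34287897, minus strand: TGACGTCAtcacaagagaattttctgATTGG
*H2-K1*, chr17:34000359-34000388, minus strand: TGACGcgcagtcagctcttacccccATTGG
*H2-D1*, chr17:35262993-35263022, plus strand: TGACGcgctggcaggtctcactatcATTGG
*B2m*, chr2:122147609-122147638, plus strand: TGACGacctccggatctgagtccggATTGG

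In *H2-K1*, *H2-D1* and *B2m* the motifs were 20 bases apart, and in *H2-Aa* 21 bases, where TGACG is part of the palindrome TGACGTCA and so matches on both strands. The RefSeq start used for *H2-D1* (chr17:35263094) lies inside the GENCODE gene whose position is given above. All 180 bases before that start, the element included, are exonic in GENCODE. The same was true of the 180 bases before the *Tap1* start. The *H2-Eb1* window held ATTGG at 59 bases before the start without TGACG, the *Tap1* window held both motifs but not at this distance, and the *H2-DMa* window held neither. The upstream sequences of a class II gene and of the class I partner genes are given to show what surrounds the element, with every motif searched in capitals.
*H2-Aa*, chr17:34287824-34288003, minus strand: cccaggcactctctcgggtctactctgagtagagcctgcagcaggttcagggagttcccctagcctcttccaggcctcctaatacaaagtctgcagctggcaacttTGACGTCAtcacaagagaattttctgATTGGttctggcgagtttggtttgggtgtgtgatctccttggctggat
*H2-K1*, chr17:34000348-34000527, minus strand: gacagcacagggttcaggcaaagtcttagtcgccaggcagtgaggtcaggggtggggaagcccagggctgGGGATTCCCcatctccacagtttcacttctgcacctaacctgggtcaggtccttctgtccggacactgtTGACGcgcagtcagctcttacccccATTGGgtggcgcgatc
*B2m*, chr2:122147507-122147685, plus strand: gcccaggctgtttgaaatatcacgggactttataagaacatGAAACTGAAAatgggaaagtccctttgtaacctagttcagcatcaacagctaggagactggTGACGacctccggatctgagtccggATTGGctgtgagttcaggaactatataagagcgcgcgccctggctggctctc

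The NF-kB core GGGATTCCC was found in the windows of *H2-K1* and *H2-D1* and in 0.353% of all windows. The interferon response core GAAANNGAAA was found in that of *B2m* and in 3.44% of all windows. The STAT6 motif TTCNNNNGAA, where N is any base, was in 0 of the 7 windows and in 6.95% of all windows, and TTCNNNGAA, the motif of other STATs, in 0 of the 7 and 8.3% of all. ATTGG alone was in 6 of the 7 and 37.4% of all windows, and TGACG alone in 5 of the 7 and 20.8% of all. A match in these letters describes the sequence and is not evidence of binding.

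Values are TPM, relative transcript abundances that correct for transcript length and so can be compared between genes, and that sum to 1000000 in each library. TPM keep no read counts, so the depth behind a value is unknown and no counting interval is given. *Trem2* itself was between 1190 and 1886 TPM in the 6 WT libraries and between 325 and 770 TPM in the 6 KI libraries, with a log2 difference of -1.43 ± 0.19 (SE, adjusted p = 0.00763, limma). All 12 microglial markers were detected in every library. Their summed level was lower in the untreated KI libraries (7307 to 15805 TPM) than in the untreated WT libraries (17076 to 18733 TPM), and after IL-4 it was 12168 to 16921 TPM in KI and 17859 to 21956 TPM in WT. Culture T15 stood apart in its 8 astrocyte markers, which summed to 4679 TPM untreated and 3565 TPM after IL-4, against 164 to 674 TPM in the other 10 libraries. Dendritic cells and B cells carry much class II in other tissues, and their markers were near the floor, with 8 dendritic cell markers summing to at most 7.54 TPM and 5 B cell markers to at most 1.89 TPM in any library. The 6 T and NK cell markers summed to at most 1.802 TPM. The 10 markers of border macrophages and monocytes summed to 597 to 1221 TPM untreated and 1034 to 2124 TPM after IL-4. Most of that was *Ms4a7* (481 to 1773 TPM) and *Pf4* (37.2 to 349 TPM), while *Lyve1* and *Plac8* were listed at 0 in all 12 libraries and *Cd163*, *Ccr2* and *Ly6c2* did not exceed 1.33 TPM. *Mrc1*, the mannose receptor, was at 0.779 to 4.33 TPM untreated and 15.1 to 63.2 TPM after IL-4, higher in all 6 cultures. *F13a1* (at most 11.9 TPM) was lower in all 6, and *Cbr2* did not exceed 7.88 TPM.

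The members spanned the range from nearly undetected to among the most abundant RNAs of these cells. In order of their median level over the 12 libraries, *B2m* was at 7986 TPM, *H2-D1* at 2258, *H2-K1* at 1029, *Cd74* at 247, *H2-DMa* at 28.9, *Tap1* at 20.3, *H2-Ab1* at 4.33, *H2-Aa* at 1.91, *H2-Eb1* at 1.23 and *Ciita* at 0.00274 TPM. *B2m* ranked between the 7th and the 17th gene of a library. The lowest *B2m* value (5056 TPM) was above the highest *H2-D1* value (3346 TPM), and *H2-D1* exceeded *H2-K1* in all 12 libraries by 1.81 to 2.67 times. *H2-DMa* and *Tap1* overlapped over the libraries, as did the 3 classical class II chains. The 10 genes together took 0.696% to 2.14% of the TPM of a library.

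**Figure D1:**
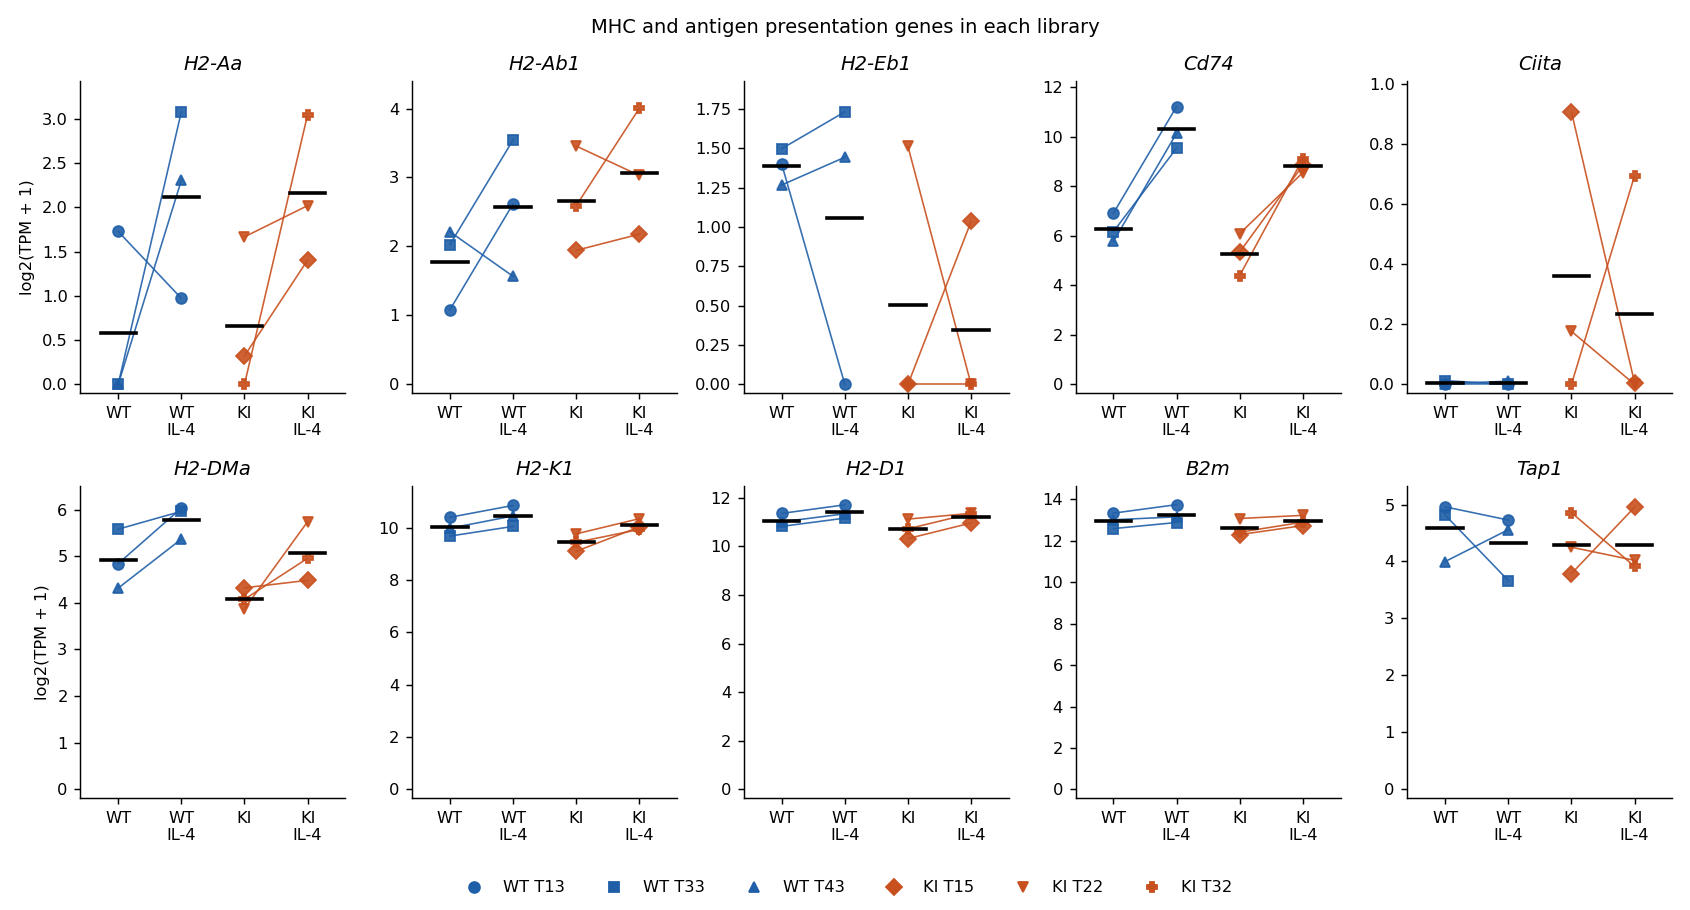
log2(TPM + 1) of each of the 10 genes (y axis, own scale per panel) in the 4 groups (x axis). Points are libraries, lines join the untreated and IL-4 library of a culture, and black bars are group means. *Cd74* is higher with IL-4 in all 6 cultures, from 20.0 to 119 TPM untreated to 374 to 2370 TPM, while the class II chains and *Ciita* stay low.

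The comparisons used log2(TPM + 1). On that scale 11204 genes averaged more than 1.5 over the libraries, and these were fitted with limma in a model of genotype, IL-4 treatment and the interaction of both. A gene was called at a Benjamini-Hochberg adjusted p under 0.05 over all these genes. Of the 10 members, 7 passed the limit on low values. *H2-Aa*, *H2-Eb1* and *Ciita* did not, and were fitted without it. These are whole cultures, so fewer microglia in a culture and less RNA of a gene per microglial cell cannot be told apart from the level of a gene alone.

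The IL-4 comparison asks which of these genes respond to the cytokine. *Cd74*, which encodes the class II chaperone and also a receptor for the cytokine MIF, rose strongly. Untreated WT libraries T13, T33 and T43 held 119, 70.7 and 53.5 TPM, and their IL-4-treated partners held 2370, 742 and 1125 TPM. Untreated KI libraries T15, T22 and T32 held 39.5, 66.9 and 20.0 TPM, and after IL-4 458, 374 and 549 TPM. Every treated library was thus above every untreated library in either genotype. The rise within a culture was 5.59-fold in T22 at the least and 27.4-fold in T32 at the most. The log2 difference was 3.79 ± 0.31 (SE, adjusted p = 6.31e-05, limma moderated F-test), with 4.01 in WT (adjusted p = 0.000356) and 3.56 in KI (adjusted p = 0.00201). The call within KI was lost without the limit on low values (adjusted p = 0.0981) and without T32 (0.0691). Without culture T15 the difference over both genotypes was 3.80 (adjusted p = 0.000241). The summed microglial markers after IL-4 were 0.953 to 1.67 times those before it within a culture. Among these markers *Cx3cr1*, *Gpr34* and *Tmem119* were lower with IL-4 in all 6 cultures. *C1qa*, *Csf1r* and *Fcrls* were higher in all 6, and the others had no common direction. The summed border macrophage and monocyte markers, and *Mrc1* among them, were also higher with IL-4 in all 6 cultures. The part of either set of markers in the *Cd74* values was not tested.

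*Cd74* was the only one of the 7 members tested that was called for IL-4, where 0.893% of all genes were called. It was also the only one within WT, where 0.571% of all genes were called, and the only one within KI, where 0.402% were. On direction alone, 5 of the 7 were higher with IL-4 in all 6 cultures (*Cd74*, *H2-DMa*, *H2-K1*, *H2-D1* and *B2m*), against 5.73% of all genes tested. The median log2 difference of the 7 was 0.55, beside 0.04 for all genes.

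**Figure D2:**
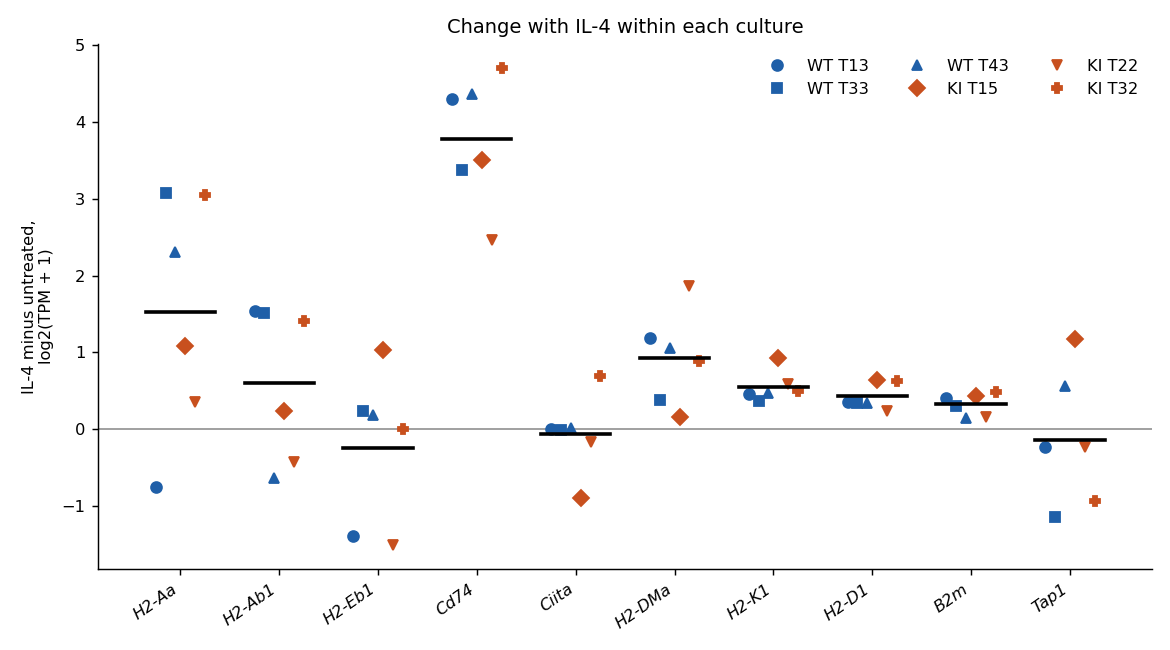
Difference in log2(TPM + 1) between the IL-4-treated and the untreated library of each culture (y axis) for the 10 genes (x axis). Points are cultures and black bars the mean of 6. *Cd74* lies between 2.46 and 4.71, *H2-K1*, *H2-D1* and *B2m* lie above 0 in every culture with small spread, and the class II chains and *Tap1* fall on both sides of 0.

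The classical class II chains, which form the presenting molecule itself, stayed low. *H2-Ab1*, the β chain of I-A, was at 1.12, 3.08 and 3.64 TPM in untreated WT and 5.14, 10.7 and 1.96 TPM after IL-4 in T13, T33 and T43. In T15, T22 and T32 it was at 2.85, 9.97 and 5.03 TPM untreated and 3.53, 7.16 and 15.04 TPM after IL-4. It was higher with IL-4 in 4 of the 6 cultures, with overlapping groups and a log2 difference of 0.60 ± 0.45 (SE, adjusted p = 0.98, limma).

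*H2-Aa*, the α chain of I-A, was listed at 2.31, 0 and 0 TPM in untreated WT and at 0.963, 7.46 and 3.95 TPM after IL-4. In KI it was listed at 0.25, 2.18 and 0 TPM untreated and at 1.65, 3.06 and 7.27 TPM after IL-4. It was higher with IL-4 in 5 of the 6 cultures and lower in T13. Its log2 difference of 1.52 ± 0.56 (SE) was not called (adjusted p = 0.867, limma with no limit on low values), and it was listed at 0 in 3 libraries.

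*H2-Eb1*, the β chain of I-E, whose α partner C57BL/6 mice do not make, was listed at 0 in 5 libraries and at 2.32 TPM at most. Its log2 difference with IL-4 was -0.24 ± 0.40 (SE, adjusted p = 1, limma with no limit). *Ciita*, the switch for class II transcription, did not exceed 0.874 TPM in any library and was under 0.01 TPM in all 6 WT libraries, treated or not. The *Ciita* values above 0.1 TPM were 0.874 and 0.13 TPM in untreated T15 and T22 and 0.617 TPM in treated T32, all in KI. Its log2 difference with IL-4 was -0.06 ± 0.17 (SE, adjusted p = 1, limma with no limit). At these levels a change of *Ciita* could not be measured.

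The rise of *Cd74* therefore took place against class II chains at a small fraction of its level. *H2-Aa*, *H2-Ab1* and *H2-Eb1* summed to 3.10 to 14.0 TPM in untreated libraries and 6.10 to 22.3 TPM in treated ones. *Cd74* was 3.98 to 23.5 times that sum untreated and 24.6 to 389 times after IL-4. The ratio after IL-4 was above the untreated one in all 6 cultures, with the highest ratio in T13 (389) and the lowest in T32 (24.6). The chain sum after IL-4 was highest in T33 (20.5 TPM) and T32 (22.3 TPM), where the ratio was 36.3 and 24.6.

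**Figure D3:**
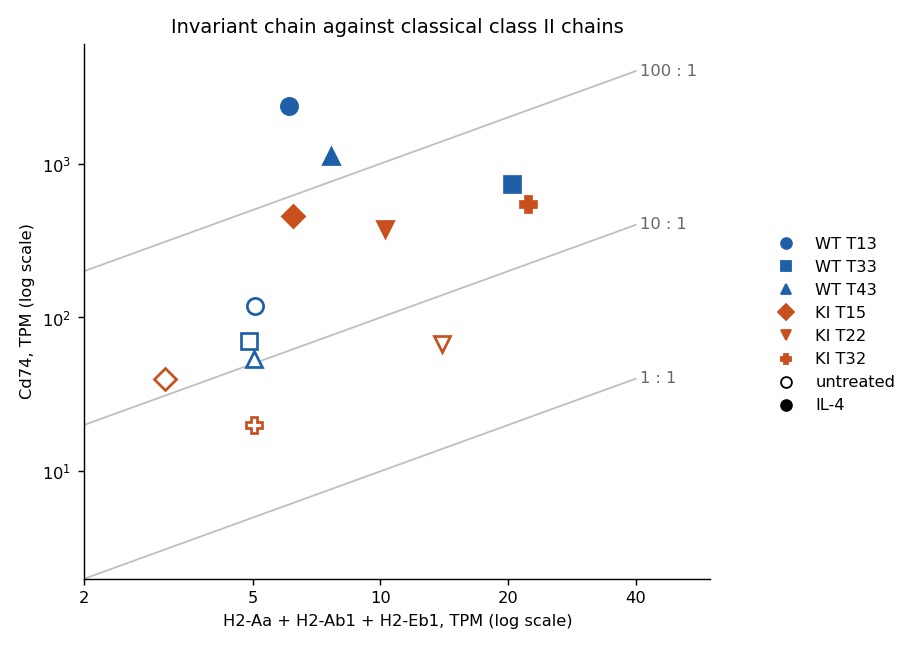
*Cd74* TPM (y axis, log scale) against the summed TPM of *H2-Aa*, *H2-Ab1* and *H2-Eb1* (x axis, log scale) in the 12 libraries. Open symbols are untreated, filled symbols IL-4-treated, and grey lines mark ratios of 1, 10 and 100. All treated libraries lie above all untreated ones on the y axis (374 TPM at the lowest against 119 TPM at the highest), while the x values overlap.

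*H2-DMa*, the α subunit of the H2-DM exchange factor, held 27.7, 46.9 and 18.9 TPM in untreated WT and 64.4, 61.4 and 40.3 TPM after IL-4 in T13, T33 and T43. KI libraries held 19.0, 13.6 and 15.9 TPM untreated and 21.4, 52.5 and 30.0 TPM after IL-4 in T15, T22 and T32. It was higher in all 6 cultures, by 1.12 to 3.85 times, but the spread was wide, and the log2 difference of 0.92 ± 0.26 (SE) was not called (adjusted p = 0.356, limma). *H2-DMa* overlaps *Brd2* on the opposite strand, and 9.23% of the distinct 31-base stretches of its annotated transcripts also occur in *Brd2*. Its partner *H2-DMb1* differed by 0.00 ± 0.24 (SE, adjusted p = 1, limma).

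The class I genes *B2m*, *H2-K1* and *H2-D1* were abundant, and their values were higher with IL-4 in each culture. *B2m*, the light chain of every class I molecule, was at 10369, 6183 and 8304 TPM in untreated WT and 13776, 7580 and 9161 TPM after IL-4. KI libraries held 5056, 8664 and 5476 TPM untreated and 6833, 9631 and 7669 TPM after IL-4. The groups overlapped, and each culture was higher with IL-4, by 1.10 to 1.40 times.

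*H2-K1*, a heavy chain, was at 1352, 821 and 1012 TPM in untreated WT and 1851, 1062 and 1400 TPM after IL-4. In KI it was at 549, 871 and 695 TPM untreated and 1046, 1303 and 979 TPM after IL-4. The treated library held 1.29 to 1.90 times the untreated one, most in T15. *H2-D1*, the other classical heavy chain, was at 2621, 1809 and 2057 TPM in untreated WT and 3346, 2289 and 2595 TPM after IL-4. KI libraries held 1277, 2226 and 1688 TPM untreated and 1996, 2628 and 2612 TPM after IL-4. The ratio within a culture was 1.18 to 1.56.

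Whether these class I differences were called rested on the treatment of the culture in the fit. Without it, the log2 differences with IL-4 were 0.55 ± 0.17 for *H2-K1* (SE, adjusted p = 0.446, limma), 0.42 ± 0.16 for *H2-D1* (adjusted p = 0.699) and 0.32 ± 0.20 for *B2m* (adjusted p = 0.962). With culture as a fixed replicate block, which compares each treated library with its own untreated partner, *H2-K1* (SE 0.08, adjusted p = 0.00443) and *H2-D1* (SE 0.07, adjusted p = 0.0191) were called and *B2m* was not (SE 0.07, adjusted p = 0.0887). The paired test of the average difference as 1 coefficient, added after the data were seen, also called *B2m* (adjusted p = 0.03), so that 4 of the 7 members were called, where 2.92% of all genes were. In the paired F-test 3 of the 7 members were called for IL-4, *Cd74* included, where 2.14% of all genes were called. *H2-DMa* had an adjusted p of 0.155 in it and of 0.0536 in the paired test with 1 coefficient. By genotype, the paired fit called *Cd74*, *H2-K1* and *H2-D1* within KI (adjusted p = 0.000149, 0.00786 and 0.0371, limma), where 1.18% of all genes were called, and *Cd74* alone of the members within WT, where 1.54% were. This is no test of a difference between the genotypes, and the interaction given below was not called.

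*H2-K1*, *H2-D1* and *B2m* varied together. *B2m* was 2.14 to 2.80 times the sum of the heavy chains in every library. *H2-D1* was 1.94 to 2.20 times *H2-K1* in untreated WT and 2.32 to 2.56 times in untreated KI, without overlap, and 1.81 to 2.16 times in WT and 1.91 to 2.67 times in KI after IL-4, with overlap. These ratios were not tested. Over the 12 libraries, which share treatment and culture, Pearson's r of log2 values was 0.94 for *H2-K1* with *H2-D1*, 0.93 for *H2-K1* with *B2m* and 0.93 for *H2-D1* with *B2m*. After removal of the group means it was 0.88, 0.95 and 0.92, so the likeness was also seen among cultures of one group. *Cd74* had an r of 0.79 with *H2-K1*, 0.77 with *H2-D1* and 0.65 with *B2m*, and of 0.60, 0.61 and 0.70 after removal of the group means. Among the class II genes near the floor, r was 0.46 for *H2-Aa* with *H2-Ab1* (0.33 after removal of the group means). With *Cd74* it was 0.67 for *H2-Aa*, 0.20 for *H2-Ab1* and -0.01 for *H2-Eb1*, and 0.18, -0.07 and -0.06 after that removal. Of the distinct 31-base stretches of *H2-K1* transcripts, 22.8% occur in other genes, and of those of *H2-D1* 26.9%, with 13.8% in *H2-K1*. Some reads may therefore fit more than 1 of these genes, and how many did was not measured. *B2m* has no such shared stretch in the transcripts, and *Cd74* 1.41%.

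*Tap1*, a subunit of the peptide transporter, had no common direction over the cultures. In WT it was at 30.1, 27.1 and 14.99 TPM untreated and 25.5, 11.7 and 22.6 TPM after IL-4, and in KI at 12.8, 18.0 and 28.0 TPM untreated and 30.0, 15.2 and 14.1 TPM after IL-4. It was higher with IL-4 in 2 cultures and lower in 4, with a log2 difference of -0.14 ± 0.29 (SE, adjusted p = 1, limma). Its r with *H2-K1* over the 12 libraries was 0.26.

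The genotype comparison asks which of these genes differ when *Trem2* carries R47H. Levels were lower in KI for 6 of the 7 members tested, but 0 were called by the F-test, where 1.65% of all genes were called, and 3 of them (*Cd74*, *H2-DMa* and *H2-K1*) had an unadjusted p under 0.05 in limma, against 16.1% of all genes. The median log2 difference of the 7 was -0.35, beside 0.13 for all genes. Under median-ratio scaling these medians were -0.50 and -0.01. Microglial markers were lower in the same KI libraries, as given above. The 6 mural and fibroblast markers, mostly *Acta2*, summed to 80.2 to 166 TPM in WT and 576 to 804 TPM in KI untreated, and to 144 to 404 TPM in WT and 408 to 800 TPM in KI after IL-4. The 6 oligodendrocyte lineage markers summed to 28.4 to 81.7 TPM in WT and 110 to 453 TPM in KI untreated, and to 27.4 to 82.3 TPM in WT and 89.6 to 309 TPM in KI after IL-4. Border macrophage and monocyte markers were lower in untreated KI (597 to 800 TPM) than in untreated WT (946 to 1221 TPM) and overlapped after IL-4. The part of these markers in the MHC values was not tested.

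*Cd74* had the largest genotype difference of the members tested. Its log2 difference between KI and WT was -1.24 ± 0.31 (SE, adjusted p = 0.114, limma F-test), with -1.01 untreated (adjusted p = 0.267) and -1.46 after IL-4 (adjusted p = 0.318). The untreated groups overlapped at T22, and after IL-4 the 3 KI libraries (374 to 549 TPM) lay below the 3 WT libraries (742 to 2370 TPM). The test of the average difference as 1 coefficient, which calls 5.13% of all genes, gave an adjusted p of 0.0388 for *Cd74*, and with culture as a random replicate block, which calls 2.97%, 0.068. Without T13, the culture with the highest *Cd74*, the log2 difference was -0.85 (adjusted p = 0.278, F-test).

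Of the other members, *H2-DMa* differed by -0.77 ± 0.26 (SE, adjusted p = 0.256, limma) and *H2-K1* by -0.47 ± 0.17 (adjusted p = 0.286). *B2m* differed by -0.35 ± 0.20 (adjusted p = 0.612), *H2-D1* by -0.26 ± 0.16 (adjusted p = 0.629) and *Tap1* by -0.16 ± 0.29 (adjusted p = 0.929). *H2-Ab1* was the one with a higher level in KI, by 0.69 ± 0.45 (adjusted p = 0.669). Fitted with no limit on low values, *H2-Aa* differed by 0.06 ± 0.56 (adjusted p = 1), *H2-Eb1* by -0.80 ± 0.40 (adjusted p = 0.761) and *Ciita* by 0.29 ± 0.17 (adjusted p = 0.761). Without T15, the culture with the astrocyte markers and the lowest *B2m*, *H2-K1* and *H2-D1* untreated, the differences were -0.36 for *H2-K1*, -0.22 for *B2m* and -0.09 for *H2-D1*. Without T13, the WT culture with the highest values of these genes, they were -0.27, -0.14 and -0.11.

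No member was called between KI and WT in untreated cultures, where 0.91% of all genes were called and 3 members had an unadjusted p under 0.05 in limma, against 16.8% of all genes. After IL-4 it was again 0 members, where 0.0179% of all genes were called and 1 member, *Cd74*, had an unadjusted p under 0.05, against 10.3% of all genes. In 0 of the 7 members were the untreated KI libraries all below the untreated WT libraries, against 4.55% of all genes tested. After IL-4 this held for 1 of the 7, *Cd74*, against 5.79% of all genes.

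The interaction asks whether the response to IL-4 differed between the genotypes. It was called for 0 of the 7 members and 0% of all 11204 genes, with 0 members and 357 genes at an unadjusted p under 0.05 in limma. For *Cd74* the response in KI minus that in WT was -0.46 ± 0.62 on the log2 scale (SE, adjusted p = 1), and it ran from -1.03 to 0.090 when 1 culture was left out. For *H2-K1* it was 0.24 ± 0.34 and for *B2m* 0.08 ± 0.40.

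Wider lists of the pathways, each chosen by function, put the members in context. Of 18 further class II genes (*H2-DM* and *H2-O* chains, endosomal proteases, the factors of the X and Y boxes and the MARCH ligases), 15 were tested, and 0 were called for IL-4, with 2 at an unadjusted p under 0.05 in limma, against 7.27% of all genes. With culture as a block 2 were called, where 2.14% of all genes were, both of them cathepsins that process the invariant chain. *Ctss*, the protease that completes its removal, was between 2022 and 5388 TPM untreated and between 3354 and 8160 TPM after IL-4 and higher in all 6 cultures, with a log2 difference of 0.55 ± 0.08 (SE, adjusted p = 0.00774 with the block, limma). *Ctsl* was also higher in all 6 cultures, with 0.53 ± 0.08 (SE, adjusted p = 0.00922 with the block). The paired test with 1 coefficient, where 2.92% of all genes were called, called 3, the cathepsins and *Ifi30*, a reductase of disulfide bonds in endosomes (1.04 ± 0.25, SE, adjusted p = 0.0491). These genes are named because they passed those fits, after their values were seen. *Rfx5*, *Rfxap*, *Rfxank*, *Nfya*, *Nfyb* and *Nfyc*, the proteins of the shared promoter element, were tested and not called for IL-4. The median IL-4 difference of the 15 was 0.35, beside 0.04 for all genes.

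Of 30 further class I genes (peptide loading, immunoproteasome, nonclassical heavy chains and *Nlrc5*), 23 were tested, and 0 were called for IL-4, with 6 at an unadjusted p under 0.05, all higher on average over the genotypes, against 7.27% of all genes in either direction. They were *Calr*, *Fcgrt*, *H2-K2*, *Pdia3*, *Psme2* and *Tapbp*, named because the count is small. Of these, *H2-K2* was lower with IL-4 in T33 and T43, *Psme2* in T15 and T32, and *Fcgrt* in T33. *Calr*, *Pdia3* and *Tapbp*, members of the peptide loading complex, were higher with IL-4 in all 6 cultures, with log2 differences of 0.44 ± 0.12, 0.32 ± 0.10 and 0.45 ± 0.12 (SE, adjusted p = 0.296, 0.566 and 0.317, limma). By the paired test with 1 coefficient, where 2.92% of all genes were called, these 3 of the 23 were called (adjusted p = 0.0213, 0.044 and 0.0213). By the paired F-test 0 of the 23 were, where 2.14% of all genes were called. *Nlrc5*, the class I counterpart of *Ciita*, was at 0.28 to 6.599 TPM and differed by -0.38 ± 0.49 (SE, adjusted p = 1, limma). The median of the 23 was 0.15.

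By genotype, 0 of the 23 class I genes were called by the F-test and 5 had an unadjusted p under 0.05 in limma, all lower in KI on average over the treatments, against 16.1% of all genes in either direction. By the 1-coefficient test 9 had an unadjusted p under 0.05, against 21.3% of all genes, 6 of them lower and 3 higher in KI. The higher ones were *Calr* (0.30 ± 0.12 on the log2 scale, SE), *Canx* (0.31 ± 0.14) and *Pdia3* (0.25 ± 0.10), chaperones of the endoplasmic reticulum, and they were not called (adjusted p = 0.16, 0.204 and 0.183). The immunoproteasome subunits *Psmb8* and *Psmb9*, which cut peptides for class I, came closest. *Psmb8* was at 213 to 301 TPM in WT and 118 to 192 TPM in KI, and *Psmb9* at 40.7 to 68.8 TPM in WT and 19.3 to 32.8 TPM in KI, so no KI library reached a WT library for either gene. Of all genes tested, 4.55% had all untreated KI libraries below all untreated WT libraries, and 5.79% had this after IL-4. The log2 differences were -0.72 ± 0.15 for *Psmb8* (SE, adjusted p = 0.0539, limma F-test) and -0.82 ± 0.17 for *Psmb9* (adjusted p = 0.0568). By the 1-coefficient test, where 5.13% of all genes were called, these 2 of the 23 were called (adjusted p = 0.0164 and 0.0172). In it with the random block, where 2.97% of all genes were called, the same 2 were (adjusted p = 0.0294 and 0.0354). They were chosen after their values were seen. *Tap1*, whose start lies next to that of *Psmb9* on the opposite strand, differed by -0.16.

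Among 10 costimulatory and checkpoint ligands, 8 were tested and 2 were called for IL-4, where 0.893% of all genes were, both higher. *Cd274*, which encodes the checkpoint ligand PD-L1, was at 14.0, 11.8 and 10.3 TPM in untreated WT and 55.0, 31.7 and 48.5 TPM after IL-4. In KI it was at 15.8, 15.5 and 37.0 TPM untreated and 42.2, 44.1 and 29.3 TPM after IL-4. It was higher in 5 of the 6 cultures, with T32 the exception, and the log2 difference was 1.31 ± 0.24 (SE, adjusted p = 0.0329, limma). Leaving out T13, T22, T33 or T43 ended that call (adjusted p = 0.21, 0.0839, 0.132 and 0.417), as did the fit without the variance trend (0.105) and that without the limit on low values (0.207).

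*Cd83*, a surface protein that stabilises class II and CD86 on antigen-presenting cells, was at 168, 241 and 200.4 TPM in untreated WT and 413, 353 and 475 TPM after IL-4. KI libraries held 114, 184 and 143 TPM untreated and 266, 313 and 275 TPM after IL-4. Every treated library was above every untreated one, and the log2 difference was 1.00 ± 0.14 (SE, adjusted p = 0.00527, limma), and the call was lost without T43 (adjusted p = 0.0836), without the variance trend (0.0842) and without the limit on low values (0.0763). *Cd86*, the main costimulatory ligand of naive T cells, differed by -0.11 ± 0.34 (SE, adjusted p = 1), and *Cd80*, not tested for its low level, did not exceed 2.98 TPM. *Cd86* was higher with IL-4 in 4 of the 6 cultures and lower in T33 and T32, the most in T32 (24.0 to 8.67 TPM). *Pdcd1lg2*, which encodes the checkpoint ligand PD-L2, was also under the limit and not tested. It was listed at 0.824, 0 and 0 TPM in untreated WT and 15.4, 4.89 and 7.64 TPM after IL-4, and in KI at 0 in the 3 untreated libraries and 0.36, 3.25 and 2.99 TPM after IL-4, higher in all 6 cultures. The median IL-4 difference of the 8 was 0.26.

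Of 11 genes of interferon-γ and IL-4 receptor signalling, all were tested and 1 was called for IL-4, where 0.893% of all genes were. By the paired test with 1 coefficient, where 2.92% of all genes were called, 3 were called, *Socs1*, *Jak2* (higher) and *Irf8* (lower). *Socs1*, an inhibitor of JAK kinases that restrains both pathways, was listed at 4.66, 0 and 1.53 TPM in untreated WT and 190, 85.5 and 128 TPM after IL-4. KI libraries held 12.7, 7.28 and 13.6 TPM untreated and 81.6, 128 and 49.4 TPM after IL-4. All treated libraries were above all untreated ones, and the log2 difference was 4.25 ± 0.39 (SE, adjusted p = 8.92e-05, limma), with 5.73 in WT and 2.78 in KI. The test of that difference between genotypes was not passed (-2.95 ± 0.77, adjusted p = 1). *Irf1*, a transcription factor through which interferon-γ reaches *Ciita* and class I genes, had a log2 difference of 0.87 ± 0.25 (SE) and was not called (adjusted p = 0.317, limma), and was picked with its values known. By genotype, 0 of the 11 were called by the F-test, where 1.65% of all genes were. The 1-coefficient test, which calls 5.13% of all genes, called 1, *Ifngr1*, lower in KI. With the random block, which calls 2.97%, it called 0 of the 11.

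**Figure D4:**
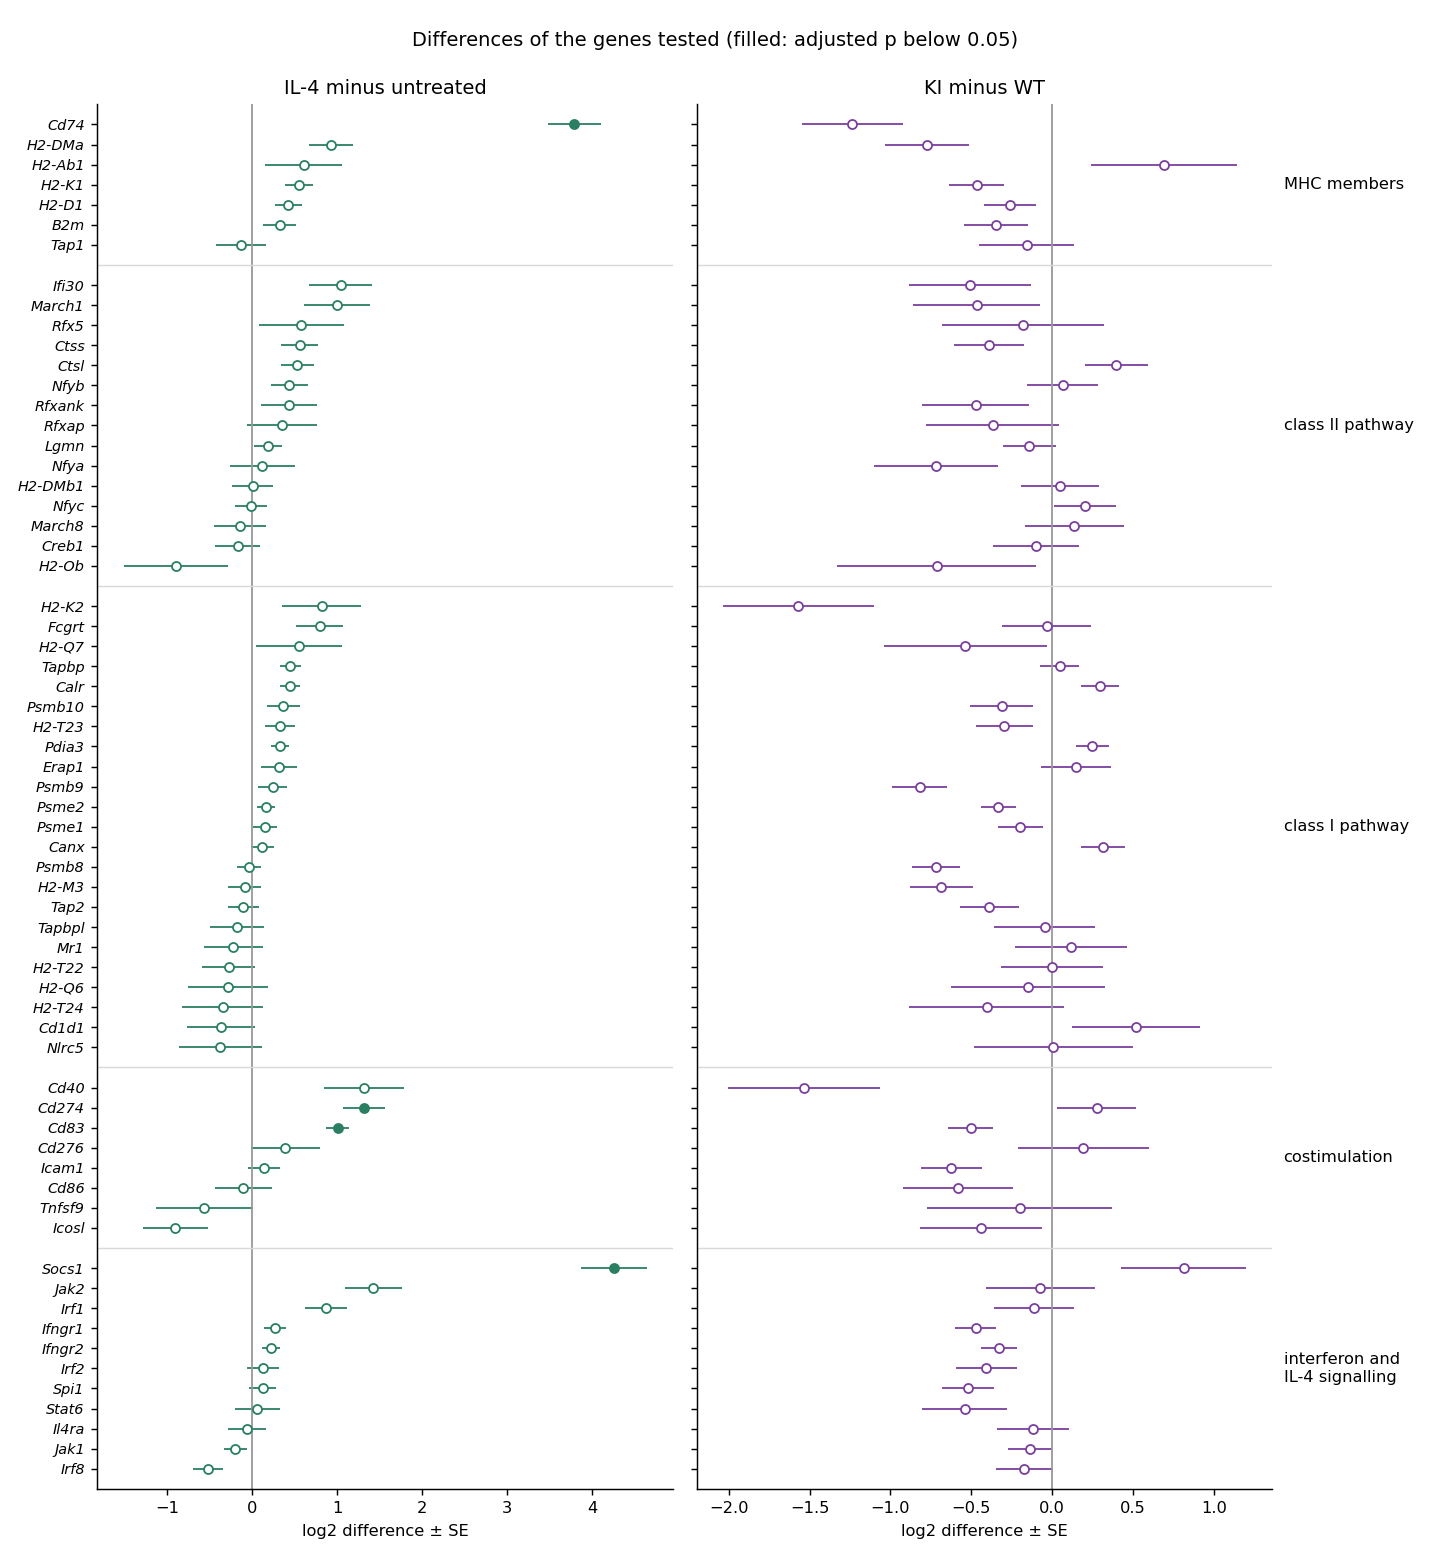
log2 differences with SE (x axes) for IL-4 against untreated (left, green) and KI against WT (right, purple) of the 64 genes tested in the 5 lists (y axis), from the limma fit without the block. Filled points have an adjusted p under 0.05. They are *Cd74*, *Cd274*, *Cd83* and *Socs1*, all for IL-4, and 0 points are filled for genotype.

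Genes outside these lists whose levels ran most like the members' were taken by Pearson's r of log2(TPM + 1) over the 12 libraries. For the mean of *H2-Aa*, *H2-Ab1*, *H2-Eb1* and *Cd74* they were *Rab19* (r = 0.94), *Dennd4c* (0.91), *Evl* (0.91), *Atp6v0a1* (0.91) and *Wdr36* (0.90). For the mean of *H2-K1*, *H2-D1*, *B2m* and *Tap1* they were *Dhx58* (r = 0.95), *Sp100* (0.92), *G530011O06Rik* (0.90), *Man2b1* (0.90) and *Ifi204* (0.90). Several of the second set, among them *Dhx58*, *Sp100* and *Ifi204*, are known as interferon-stimulated genes. The 12 points share treatment, genotype and culture, and the highest of many correlations are high by selection.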

How the data were processed

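Polyadenylated RNA of 12 primary microglia libraries (6 cultures, 2 libraries per culture) was analysed. The deposited TPM were made by the authors with Trim Galore for adaptors, Salmon for transcripts of ENSEMBL GRCm38 (GC and position bias corrected) and tximport for genes, whose versions are not given in the sources used here. Depth is unknown from TPM, and precision in the fit without the block is the spread between libraries within the 4 groups. The study tested counts with DESeq2, and those counts were not analysed here. Genes were matched to GENCODE vM21 by identifier (48350 of 48623).

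Values were log2(TPM + 1), filtered at a mean above 1.5, and fitted with limma 3.58.1 in R 4.3.3 (eBayes with a variance trend). Genotype and IL-4 were tested by moderated F-tests with the interaction, and adjusted p-values are Benjamini-Hochberg over 11204 genes. Both libraries of a culture share its number in the sample titles. Their deviations from the group means correlated at 0.340 (T13), 0.104 (T33), 0.104 (T43), 0.378 (T15), 0.121 (T22) and 0.0792 (T32), and the fit with culture as a block was an alternative (random for genotype, fixed for IL-4 and the interaction). Ignoring it treats the 2 libraries as independent. Other alternatives were the pseudocount, the filter, the scaling, no variance trend, a 1-coefficient test, leaving out each culture and, added after seeing the data, the block combined with the 1-coefficient test and a covariate for astrocyte markers. The fit was tested on simulated data.

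Named genes were all members, the genes of the wider lists past a threshold, *Trem2* and the 5 most alike in level. Any other gene, among them those named to describe a list, was picked with its values known. Members and lists were chosen with earlier results of these data known. One gene of the signalling list is not reported here, and its list counts leave it out. Summaries used Python 3.11.15, numpy 2.4.6 and pandas 2.3.3. Promoter sequences came from RefSeq on GRCm38.p6.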

Additional observations from a re-analysis of the deposited data

How the results depend on the processing

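*Cd74* was called for IL-4 by the test over both genotypes in each alternative run, while its call within KI was lost without the filter and without T32. With culture as a replicate block, 3 members were called for IL-4 in place of 1, adding *H2-K1* (0.55) and *H2-D1* (0.42), and the block changed no other F-test call of a member. With the replicate block and the 1-coefficient test together, added after the data were seen, 4 were called, *B2m* (0.32) included. With the 1-coefficient test, 1 member was called for genotype in place of 0 (*Cd74*, -1.24). Leaving out a culture left 1 member called for IL-4 and 0 for genotype and the interaction each time, whereas calls over all genes ranged from 46 to 143 for IL-4 (100 with all cultures) and from 3 to 191 for genotype (185), which 77 with the block, 26 without the variance trend and 16 without the filter also moved. For IL-4 that count was 240 with the block and 50 without the variance trend. With the astrocyte covariate, the counts over all genes were 49 for genotype and 186 for IL-4. Signs turned in 10 cases, none called. With each culture left out in turn, *Tap1* ranged from -0.26 to 0.037 for genotype (above 0 without T13) and from -0.43 to 0.097 for IL-4 (above 0 without T32, and at 0.080 without T33). The interaction ranged from -1.12 to 0.021 for *H2-Ab1* and from -1.03 to 0.090 for *Cd74* (both above 0 without T22), from -0.35 (without T22) to 0.50 for *H2-DMa*, which was at -0.15 without T33, and from -0.31 (without T15) to 0.74 for *Tap1*, which was at -0.17 without T33. Quantile normalization put that of *B2m* at -0.037. The cause was not tested. TPM without counts limit what can be said of *H2-Aa*, *H2-Eb1* and *Ciita*.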
